A study of Mus musculus with 2 samples.

Results

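The enzymes of heme biosynthesis were examined for occupancy by the transcription factor NRF1 (nuclear respiratory factor 1) in mouse skeletal muscle. They are the 7 listed genes Alas1, Alad, Uros, Urod, Cpox, Ppox and Fech, chosen by their place in the pathway, out of 21000 protein-coding genes. The study asked how NRF1 shares target genes with the glucocorticoid receptor and its coregulator LSD1 in muscle, and it located NRF1 by chromatin immunoprecipitation followed by sequencing (ChIP-seq). Both libraries of the series carry labels naming skeletal muscle, the NRF1 antibody and the wild-type genotype, so they form 1 group of 2. No treatment is labelled. The wild-type mice whose NRF1 targets were listed were 9 weeks old by a supplementary legend, tissues came from males, and the strain background was C57Bl/6J. The study's reporting summary describes the library of replicate 2 as the input DNA. The peaks come as 1 list of 3226 that bears the title of replicate 1, so no value below has a replicate error and none was tested. Read depth is unknown, and a promoter without a peak may hold NRF1 below the detection threshold.

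Heme is the iron-holding ring of myoglobin, of the cytochromes and of other parts of the respiratory chain, and muscle fibers make their own. Synthesis starts in the mitochondrion, where ALA synthase joins glycine and succinyl-CoA. It moves to the cytosol for ALAD, UROS and UROD, and it returns to the mitochondrion for CPOX, PPOX and FECH, the last of which inserts the iron. ALAS1 is the housekeeping form of ALA synthase and the usual rate-limiting step, whereas ALAS2 serves red cell precursors. NRF1 is known as a regulator of nuclear genes for mitochondrial proteins, and it binds a palindrome rich in G and C.

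A promoter peak had its summit, the position of highest signal, between 1000 bp before and 100 bp after a known RefSeq transcription start in mm10. Of the 7 enzymes, 3 had one, namely Alas1, Uros and Fech, and 4 did not, against 13.4% of all protein-coding genes. The occupied enzymes were thus those that open and close the pathway and 1 from the steps between. A pattern by position was not tested. By compartment, 2 of 4 mitochondrial enzymes and 1 of 3 cytosolic enzymes had a promoter peak. The same 3 genes, and no others of the 7, were found with wider or symmetric promoters, with any overlap, with stricter peaks, with predicted starts and with GENCODE starts. Their summits lay within 53 bp of a start, and the nearest summit to any of the other 4 was 6802 bp away. The other windows and the overlap could therefore not change the count. The stricter limits could only have lowered it, and all 3 peaks lay well beyond them.

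To show what NRF1 met at these promoters, the 10-base palindrome found most often within 100 bp of the summits was taken as the motif. It was GCGCATGCGC, present at 349 of the 3226 peaks, and the next most frequent was at 91. A copy below is a match with at most 1 mismatch, and since the motif is a palindrome both strands were read at once. The motif as defined stood at 1719 of 2607 promoter peaks, or 65.9%, and in a promoter of 12.1% of all protein-coding genes. Alas1 and Uros held copies in their promoters, and the other 5 enzymes did not. The copies at Alas1 and Uros are printed 5′ to 3′ on the strand of the enzyme gene, from mm10, with the copy in capitals and 10 bases on either side.
Alas1, copy at the start (chr9:106247935-106247964, minus strand): gcttcggcgcGCGCGTGCGCgcggcaggcc
Alas1, exact copy (chr9:106247906-106247935, minus strand): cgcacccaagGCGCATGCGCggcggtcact
Uros (chr7:133709323-133709352, minus strand): cggtcacactGCGCCTGCGCgagtcccgcc
Counted from 1 at the first base of the palindrome, the Alas1 copy at the start carries A5G and the Uros copy A5C.

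In the promoters without a peak, the closest approach to the palindrome was 2 or 3 mismatches. For comparison with the copies above, the closest match of each is shown the same way, the nearest to a start where several were equally close.
Alad, 2 mismatches (chr4:62519913-62519942, minus strand): gcccccacgtGGGCTTGCGCttttagagcg
Urod, 3 mismatches (chr4:116994545-116994574, minus strand): catttctttgGGGCATTTGCtactgcgtcg
Cpox, 3 mismatches (chr16:58670157-58670186, plus strand): cacaggaggcCCGCGTGCGAgcagcaggac
Ppox, 3 mismatches (chr1:171281426-171281455, minus strand): gcttgagctgGGGAATGCTCaaggatttcg
The Alad match differs from the palindrome by C2G and A5T. It lies 14 to 23 bp before the downstream of the 2 Alad starts. The Cpox match, with G1C, A5G and C10A, lies 32 to 41 bp before its start. The matches of Urod and Ppox lie farther out, at 142 to 151 bp and at 250 to 259 bp before the start.

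**Figure D1:**
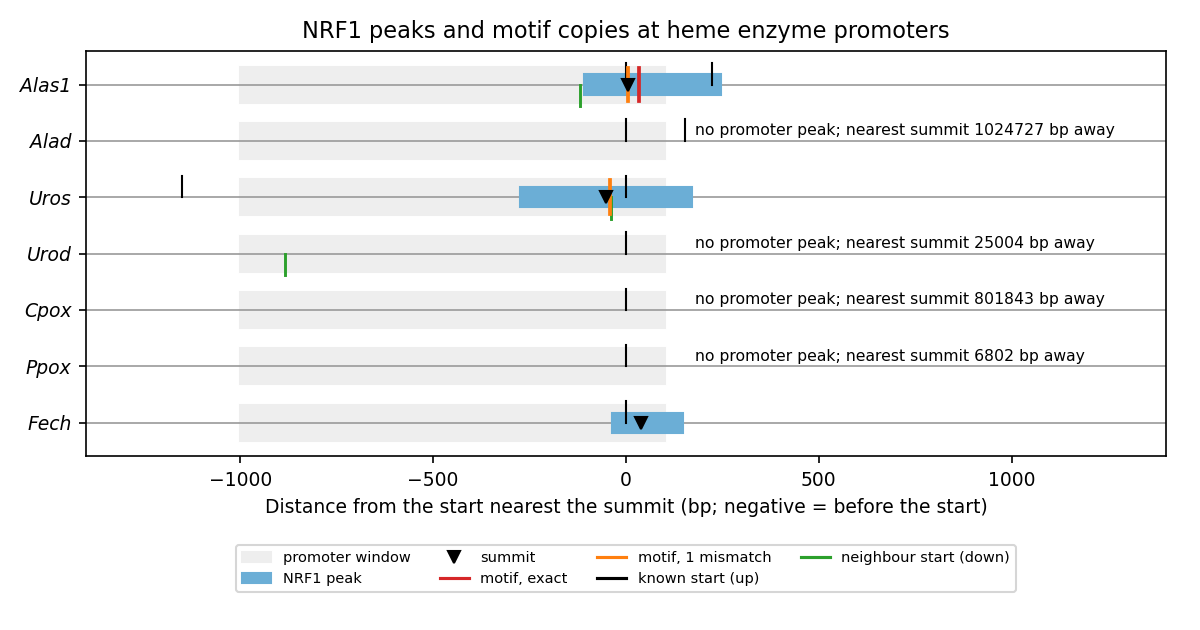
NRF1 peaks at the 7 heme enzyme promoters. The horizontal axis is the distance in bp from the start nearest the summit, read along the gene, with peaks as blue bars, summits as triangles and motif copies as coloured lines. Alas1, Uros and Fech have a summit within 53 bp of a start, and the other 4 rows have no peak; the Uros start 6848 bp from the summit is outside the range drawn.

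Alas1 (gene ID 11655, chromosome 9 from 106233455 to 106247954, minus strand), which encodes the enzyme of the first step, had the strongest peak of the 7 enzymes. The peak spanned 106247707 to 106248063, a width of 357 bp. Its fold enrichment, which is the summit signal divided by the control background in the deposited list, was 26.6, and its −log10 q was 93.7. That fold enrichment ranked 116 among 2607 promoter peaks and was higher than 95.6% of them. The median promoter peak had a fold enrichment of 11.1, with quartiles of 7.90 and 16.4, so the Alas1 value was beyond the upper quartile.

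The Alas1 summit lay 5 bp after the start of the transcript NM_020559.2, in its untranslated first exon. The copy with 1 mismatch covered exactly the first 10 bases of that transcript, with its centre 0.5 bp from the summit. The exact palindrome followed with its centre 29 bp downstream, 28.5 bp from the summit. For promoter peaks holding a copy, the median distance between summit and nearest copy was 12.5 bp. At least 2 copies stood within 100 bp of the summit at 311 promoter peaks, or 11.9%. A combination like that of Alas1, with 2 or more copies of which 1 was exact, occurred at 77 promoter peaks, or 2.95%. Their median fold enrichment was 18.6, and the Alas1 value was higher than 76.6% of theirs.

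Alas1 has a further known start, that of NM_001291835.1, inside the same peak. The summit lay 219 bp before it, so both promoters contained the summit. A predicted non-coding gene, 4930500F10Rik, starts 118 bp upstream on the opposite strand, and the summit falls in its promoter as well. Which of these starts the occupancy serves cannot be told apart from the list.

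Uros (gene ID 22276, chromosome 7 from 133686355 to 133710447, minus strand), which encodes the enzyme that closes the ring as uroporphyrinogen III, had the next strongest peak. It spanned 133709125 to 133709569, a width of 445 bp, with a fold enrichment of 18.5 and a −log10 q of 42.0. The fold enrichment was higher than 83.3% of promoter peaks and the −log10 q was higher than 71.7% of them. The peak was broader than 84.1% of promoter peaks.

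Uros has 3 known starts, and the summit lay in the promoter of only 1 of them. It was 53 bp before the start used by NM_009479.3 and 3 other transcripts. The remaining 2 starts were 1099 and 6848 bp from the summit. That promoter is divergent: Bccip, a gene for a protein that binds BRCA2 and the cell cycle inhibitor p21, starts 38 bp away on the opposite strand. The Uros copy covered exactly the first 10 bases of the Bccip transcript, and the summit lay 15 bp after the Bccip start. The summit was therefore closer to the Bccip start than to that of Uros, and occupancy for Uros and for Bccip cannot be told apart. Promoters of 2 or more protein-coding genes shared 308 of the promoter peaks.

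Fech (gene ID 14151, chromosome 18 from 64456542 to 64489098, minus strand), which encodes the iron-inserting enzyme of the last step, had the weakest of the 3 peaks. It spanned 64488951 to 64489133, a width of 183 bp, narrower than the median of 296 bp for promoter peaks. The fold enrichment was 9.44 and the −log10 q was 15.5. The fold enrichment was below the median of promoter peaks and higher than 36.7% of them. The summit lay 40 bp after the only known start, in the untranslated first exon of both Fech transcripts.

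The Fech peak differed from the others in its sequence. It held no copy of the motif, and within the whole peak the closest match had 3 mismatches. The closest match in the Fech promoter, with 2 mismatches, lay outside the peak. Such peaks were not rare, since 888 of the 2607 promoter peaks had no copy within 100 bp of the summit. Their median fold enrichment was 8.58, against 12.9 for promoter peaks with a copy, and the Fech value was higher than 56.8% of theirs. With up to 2 mismatches allowed, 91.0% of promoter peaks held a match and that of Fech still did not.

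**Figure D2:**
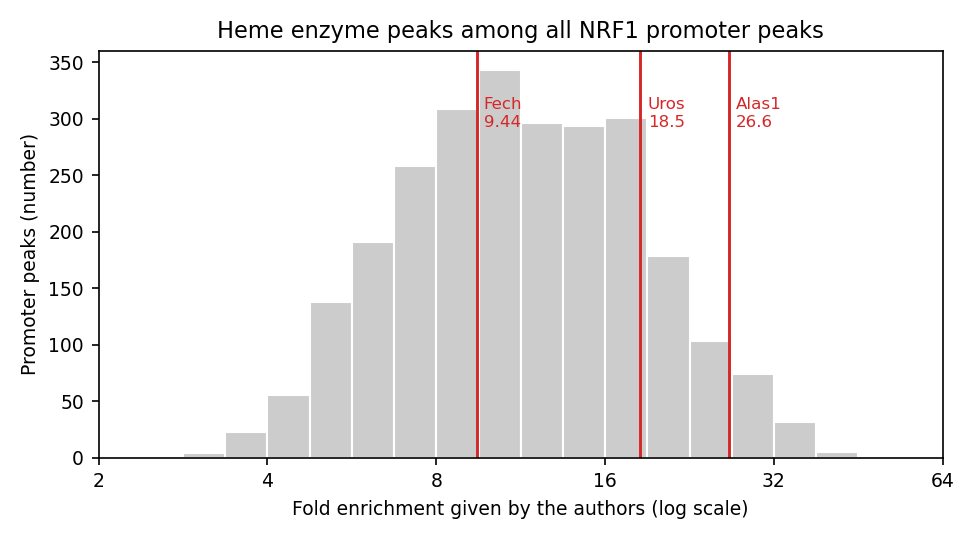
Fold enrichment of the heme enzyme peaks among all promoter peaks. The horizontal axis is the fold enrichment on a log scale and the vertical axis the number of promoter peaks, with red lines for Alas1 (26.6), Uros (18.5) and Fech (9.44), on either side of the median of 11.1.

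Alad, Urod, Cpox and Ppox had no promoter peak, and they differed widely in how far the nearest summit was. Ppox (gene ID 19044, chromosome 1 from 171276992 to 171281186, minus strand) encodes protoporphyrinogen oxidase. Its nearest summit lay 6802 bp before the start, at a peak with a fold enrichment of 7.47. That summit was 27 bp before the start of Usp21, a deubiquitinase gene, and the peak held a copy of the motif. Urod (gene ID 22275, chromosome 4 from 116989965 to 116994413, minus strand) encodes uroporphyrinogen decarboxylase. Its nearest summit was 25004 bp before the start and only 15 bp after that of Eif2b3, a translation initiation factor gene, with a fold enrichment of 13.1 and a copy of the motif.

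The other 2 lay in stretches far from any summit. Cpox (gene ID 12892, chromosome 16 from 58670208 to 58680391, plus strand) encodes coproporphyrinogen oxidase, and its nearest summit was 801843 bp away, 276 bp after the start of Riox2. That peak had a fold enrichment of 6.56 and no copy of the motif. Alad (gene ID 17025, chromosome 4 from 62505984 to 62520063, minus strand) encodes the enzyme that joins aminolevulinate into porphobilinogen. Its nearest summit was 1024727 bp away, at Atp6v1g1, with a fold enrichment of 17.0. Among the 18192 genes without a promoter peak, the median distance to a summit was 186975 bp, with quartiles of 58885 and 585252 bp. Ppox and Urod were thus below the lower quartile, Cpox and Alad above the upper one. Every one of these nearest peaks lay in or next to the promoter of another gene.

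The closeness of the best motif match in a promoter was then set beside the presence of a peak, for the 7 enzymes and for all genes. Both enzymes with a copy, Alas1 and Uros, had a promoter peak, and of the 5 without a copy only Fech did. Across all genes, 1920 of 2548 genes with a copy had a promoter peak, or 75.4%, against 888 of 18452 without, or 4.81%. For an exact palindrome, as in Alas1, the share was 89.4% (329 of 368 genes). For genes with 1 mismatch at best, as in Uros, it was 73.0%. With 2 mismatches, the best of Alad and of Fech, it was 13.9%, and with 3, the best of Urod, Cpox and Ppox, it was 1.44%. Alad and Fech were thus in the same class, and only Fech had a peak. The Fech match that sets its class lay outside that peak, whose own closest match had 3 mismatches. The motif was taken from these same summits, so a higher share among genes with a copy is partly built in. Genes are not independent, and these shares describe 1 list.

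**Figure D3:**
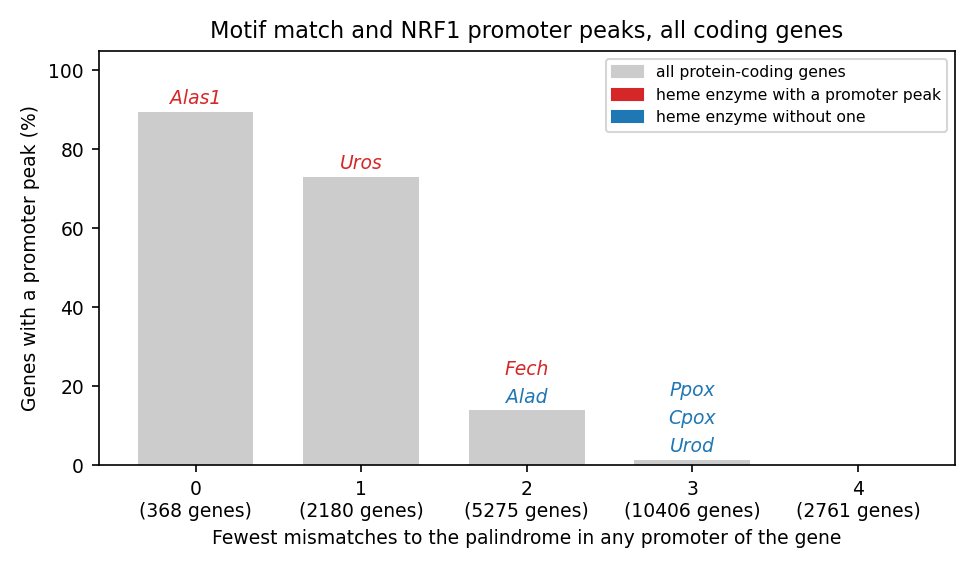
Promoter peaks by closeness of the motif. The horizontal axis is the fewest mismatches to the palindrome in any promoter of a gene, and the bars give the percentage of such genes with a promoter peak. Red names are heme enzymes with a promoter peak and blue names those without, and the bars fall from 89.4% with an exact copy to 1.44% with 3 mismatches.

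The forms of the motif at Alas1 and Uros were the 3 most frequent of the 16 seen at summits. GCGCCTGCGC, the form at Uros, was present on either strand at 713 peaks, more than any other, with a median fold enrichment of 13.2. The form at the Alas1 start, GCGCGTGCGC, was present at 508 peaks, with a median of 12.9. The exact palindrome had a median of 14.3. Of the genes with these forms in a promoter, 84.0% had a promoter peak for the Uros form and 80.8% for the form at the Alas1 start. The Uros form was also the one at the nearest peaks of Alad, Urod and Ppox.

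CpG content was compared because 2523 of the 2808 genes with a promoter peak had a start rich in CpG. A gene was called CpG-rich with a GC content of at least 55% and an observed to expected CpG ratio of at least 0.65 within 200 bp of a start. By this measure 4 of the 7 enzymes were CpG-rich, namely Alas1, Alad, Uros and Fech. Of these 4, 3 had a promoter peak, against 24.3% of all 10394 CpG-rich genes. None of the 3 remaining enzymes had one, and of the 10606 genes without a CpG-rich start only 285, or 2.69%, did. Alad was the exception, with 68.3% GC and a ratio of 0.890 at one start and 67.6% and 0.834 at the other. The main Alas1 start had 67.8% GC and a ratio of 0.982, and Fech had 71.8% and 0.852. Alad is thus close to both in composition and has no peak.

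At Uros, only the start with the peak was CpG-rich, with 59.1% GC and a ratio of 0.825. The starts without a summit in their promoter had ratios of 0.125 and 0.453. Cpox, with 60.6% GC and a ratio of 0.625, and Ppox, with 54.9% and 0.663, were just under a limit. Urod had a ratio of 0.770 and 51.4% GC. Among CpG-rich genes without a copy of the motif, as Fech and Alad are, 784 of 8251 had a promoter peak, or 9.50%.

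**Figure D4:**
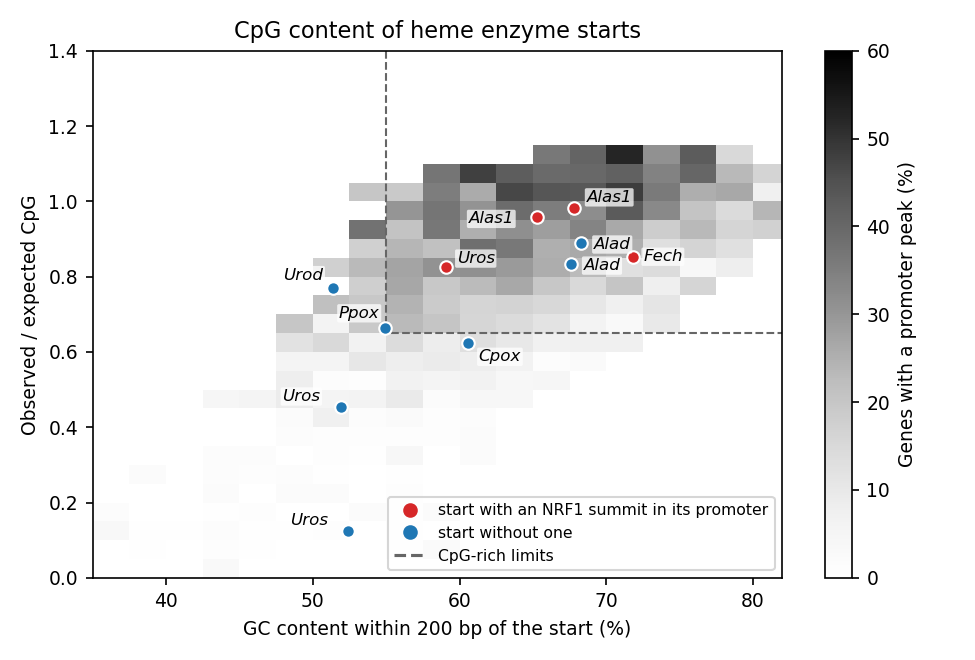
CpG content of the known starts of the heme enzymes. The horizontal axis is GC content in % and the vertical axis the observed to expected CpG ratio, both within 200 bp of a start, with red points for starts that had a summit in their promoter and blue points for the others. Shading gives the percentage of genes with a promoter peak among genes whose outermost start had that composition (bins of at least 20 genes), and dashed lines mark the CpG-rich limits of 55% and 0.65.

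Other motifs were searched on both strands from 250 bp before to 50 bp after the outermost start of each gene. GGGCGG, bound by the SP1 and KLF family, was present in 5 of the 7 enzymes and in 47.9% of all genes. Fech and Urod had 3 copies each, Alad 2, and Alas1 and Ppox 1 each. TGACGTCA, the cyclic AMP response element, was in none of the 7 and in 2.52% of all genes. CCGGAAG, an ETS family motif, was likewise in none of them and in 12.0% of all genes. At the Uros start with the peak, which is not the outermost one, 1 copy of GGGCGG and 1 of CCGGAAG were found. A match of letters is a description and no evidence of binding. RefSeq promoter sequences matched a known start of 6 of the 7 enzymes (assembly GRCm38.p6). The 100 bases before the outermost start are shown for Alas1 and, as CpG-rich and CpG-poorer promoters without a peak, for Alad and Urod, with GGGCGG or its reverse complement in capitals.
Alas1 (chr9:106247955-106248054, minus strand): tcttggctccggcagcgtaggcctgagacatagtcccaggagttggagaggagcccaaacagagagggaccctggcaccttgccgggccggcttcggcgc
Alad (chr4:62520064-62520163, minus strand): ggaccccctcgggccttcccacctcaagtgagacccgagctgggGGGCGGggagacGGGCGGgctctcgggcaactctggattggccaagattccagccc
Urod (chr4:116994414-116994513, minus strand): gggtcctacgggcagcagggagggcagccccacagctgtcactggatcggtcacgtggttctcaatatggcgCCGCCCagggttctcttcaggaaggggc

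The enzymes were then placed among 41 other genes of heme and iron handling. Of these, 11 had a promoter peak, or 26.8%, and among the CpG-rich ones it was 10 of 36, or 27.8%. The latter share is near the 24.3% of all CpG-rich genes. The heme enzymes had 3 of 7, or 42.9%, and 3 of 4 among those with a CpG-rich start. Counts this small carry wide error, and the difference was not tested.

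Genes that feed the pathway or move its intermediates in the mitochondrion had a promoter peak in 3 of 11 cases. Clpx, whose product unfolds and activates ALA synthase, had a fold enrichment of 24.7 with the summit 77 bp before the start and 1 copy of the motif. Abcb10, an inner membrane transporter needed for heme synthesis, had a fold enrichment of 17.2, with the summit 27 bp after the start and 2 copies, among them the exact palindrome. Sucla2, a subunit of an enzyme that interconverts succinyl-CoA and succinate, had a fold enrichment of 11.4. Among those without a promoter peak were the iron importers Slc25a37 and Slc25a28, the glycine carrier Slc25a38, Slc25a39, Abcb6 and Tmem14c. Alas2, the erythroid form of the first enzyme, had none either, and its nearest summit was 265677 bp away. The 2 forms of ALA synthase thus differed, with Alas2 lacking a CpG-rich start and any copy of the motif in its promoter.

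Beyond synthesis, none of the 3 genes for heme a synthesis and heme attachment, Cox10, Cox15 and Hccs, had a promoter peak. In heme breakdown it was 1 of 4, the constitutive oxygenase Hmox2, with a fold enrichment of 10.4, the summit 6 bp after the start and no copy of the motif. The inducible oxygenase Hmox1 and the biliverdin reductases Blvra and Blvrb had none. Of the genes that move heme between compartments, 2 of 5 had a promoter peak. Pgrmc2 had a fold enrichment of 20.9 and 2 copies. Flvcr2 had a fold enrichment of 3.41 and a −log10 q of 1.46, among the weakest promoter peaks of the list, and its q was above the limit of 0.01 in the methods. It is counted among the 11, and it was lost with a q of at most 1e-05, a fold enrichment of at least 5 or promoters of 500 bp either side. In heme sensing it was 1 of 4, the nuclear receptor Nr1d1, whose fold enrichment of 26.3 came near that of Alas1. Neither globin gene, Mb for myoglobin or Cygb, had a promoter peak.

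Iron handling showed a similar mixture. In uptake and storage 2 of 7 genes had a promoter peak, and neither peak held a copy of the motif. They were Tfrc, the transferrin receptor, with a fold enrichment of 14.8, and Ireb2, an iron regulatory protein, with 8.52. In iron-sulfur cluster assembly it was 2 of 4. Iscu, the scaffold, had a fold enrichment of 14.4 in a promoter shared with Sart3. Hspa9, a mitochondrial chaperone, had a fold enrichment of 19.6 without a copy of the motif. In all, 6 of the 11 peak-bearing genes had a copy at the peak, as 2 of the 3 heme enzymes did.

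**Figure D5:**
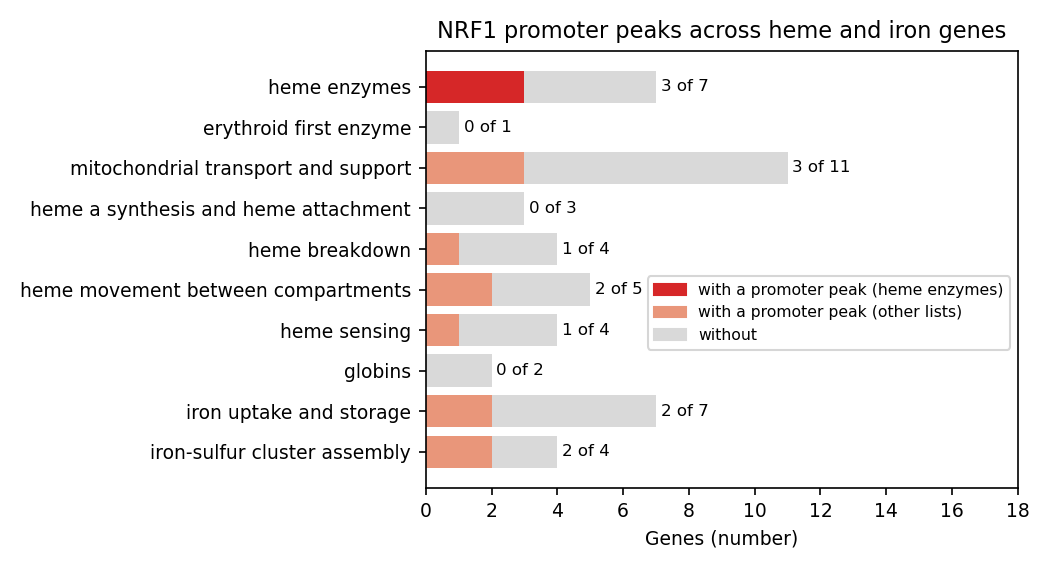
Promoter peaks across lists of heme and iron genes. Bars give the number of genes in each list, coloured for genes with an NRF1 promoter peak and grey for genes without, and the heme enzymes (3 of 7) are at the top.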

How the data were processed

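ChIP-seq of NRF1 was analysed from the deposited list of peaks. As described by the authors, single-end reads were mapped to mm10 with Bowtie, uniquely mapped reads were kept, reads in blacklisted regions (a list named for a human build) were removed and peaks were called with MACS2 against input DNA. The methods give the broad option of MACS2, whereas the list has the layout of narrow peaks. The deposited list holds the fold enrichment (a ratio to the control background), the q-value on a −log10 scale and, as another deposited column, the summit in bases from the peak start. The other 2 value columns, a score and the −log10 p-value, were not used. Peak names point to duplicate removal, which with unique mapping limits signal at the strongest sites and in repeats. The list keeps 7 peaks with a q-value above the limit of 0.01 in the methods.

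Starts were those of known RefSeq transcripts (GRCm38.p6, the assembly of mm10), read with pysam 0.24.0 in Python 3.11.15. Genes were those coding for protein through a known transcript, on chromosomes with at least 1 peak. The motif search and promoter rule were checked on made-up sequences. No test was run, since there is 1 list. Named genes were the 7 enzymes, the 41 genes of the heme and iron lists, and neighbours within 1000 bp of a start or at the nearest summit. The members and lists were chosen with earlier results of these data known. A further enzyme of the pathway is not reported here, and some genes of the lists are counted but not reported singly. Alternatives concerned the promoter window, overlap, peak thresholds, starts and motif search. GENCODE M21 starts were added after seeing the data.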

Additional observations from a re-analysis of the deposited data

How the results depend on the processing

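Of 29 alternative values for 5 results, 26 were counts within 1.5 times those reported and 3 differed further or were another rank. The count of enzymes with a promoter peak was 3 under all 7 alternatives run. Given where these peaks lay and how strong they were, the windows, overlap and stricter limits could not change that count. All protein-coding genes with one ranged from 2680 (fold enrichment of at least 5) to 3089 (2000 bp before to 500 bp after a start), and the other heme and iron genes from 10 to 12. With no mismatch allowed, the count of enzyme peaks with the motif fell from 2 to 1, that of Alas1. The median rank of the 3 peaks by fold enrichment, above 83.3% of promoter peaks, was 85.0% among all peaks and 71.7% by −log10 q. No replicate could be left out, since there is 1 list of peaks, and the unknown depth limits what can be said of promoters without a peak.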

Other observations

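Nr1d2 and Ftl1 were counted among the heme and iron genes lacking a promoter peak. Their nearest summit lay past the end of the promoter window but within 1000 bp after a start. For the other heme and iron genes without a promoter peak, the nearest summit was farther away. At Nr1d2, which encodes a heme-binding nuclear receptor of the molecular clock, the summit lay 693 bp after the nearest start, where the fold enrichment was 25.7. Its peak held the exact palindrome and 1 further copy. Nr1d1, its paralog, had a promoter peak of 26.3. At Ftl1, the ferritin light chain, the summit lay 450 bp after the start, with a fold enrichment of 11.9 and the exact palindrome. When promoters were widened to 2000 bp upstream and 500 bp downstream, Ftl1 was counted and Nr1d2 was not. None of the 4 heme enzymes without a promoter peak had a summit within 1000 bp of a start.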
